A study of Homo sapiens with 6 samples.

Results

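The 44 protein-coding collagen genes, those whose symbol has the form COL, a type number, A and a chain number, were taken from a table of 62710 Ensembl genes measured by RNA sequencing in HT1080 cells. HT1080 is an established human fibrosarcoma cell line, a tumor line of connective tissue origin. The untreated group held 3 libraries and the IFNβ group held 3 libraries of cells given 20 ng/mL human IFNβ, an antiviral type I interferon, for 24 h. All libraries came from the same line in the same medium, with no genetic change named in the labels. The labels number the libraries of a group but do not say whether they came from separate cultures, so p-values measure only the spread between these libraries, which may be technical. The authors' RNA sequencing methods name mouse IFNβ for these cells while the labels name human IFNβ.

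Collagens are secreted or membrane-bound proteins whose chains wind into a triple helix, and they are the main structural proteins of the extracellular matrix. Fibrillar collagens form the fibrils of connective tissue, type IV forms the sheet-like network of basement membranes, type VI forms beaded microfilaments around cells, FACIT collagens sit on fibril surfaces, transmembrane collagens span the cell surface, and multiplexins carry interrupted helices in basement membrane zones. Each chain is hydroxylated and folded in the endoplasmic reticulum (ER), secreted, trimmed and crosslinked before it bears load.

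Of the 44 genes, 43 were detected, and COL9A1 was listed at 0 in all 6 libraries. Levels are FPKM, fragments normalised to gene length and library size, and every change is a log2 fold change on the log2(FPKM + 0.1) scale. The 23 collagens with a mean of at least 0.1 FPKM over the 6 libraries were tested together with all other such genes, 20716 in all. Each of the 23 also had a mean of at least 0.113 FPKM in the untreated group alone. The authors divided by between 22848104 and 32915500 fragments per library, and a single fragment of a 1 kb gene was worth between 0.0304 and 0.0438 FPKM. Libraries of a group differed by more than counting error, the chi-square of their fragments divided by its degrees of freedom lying between 1.79 and 3.43. None was therefore taken as a copy of another, which does not show that they came from separate cultures.

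The labelled cell type and treatment were checked first. VIM, the mesenchymal filament protein vimentin, stood at 399 ± 23.9 FPKM (SD, n = 3) in untreated cells, and FN1, the matrix glycoprotein fibronectin, at 88.4 ± 3.99 FPKM. Of the 5 mesenchymal markers only THY1 lay under the filter, at 0.0217 ± 0.00413 FPKM in untreated cells. Of the 5 epithelial markers, EPCAM, CDH1, KRT19 and ESRP1 lay under the filter, and CLDN4, a tight junction protein, had 0.314 ± 0.109 FPKM untreated and 0.575 ± 0.0584 FPKM after IFNβ. The summed mesenchymal markers ranged from 565 to 614 FPKM in untreated libraries and from 538 to 553 FPKM after IFNβ. The summed epithelial markers ranged from 0.256 to 0.445 FPKM in untreated libraries and from 0.621 to 0.653 FPKM after IFNβ, and the summed endothelial and leukocyte markers from 0.296 to 0.404 and from 0.493 to 0.653 FPKM. EPCAM and ESRP1 were at 0 in every untreated library. The part of those low values in the collagen results was not tested. All 4 interferon-response genes of the check rose, with ISG15 at 10.5 ± 0.473 FPKM untreated and 1448 ± 30.1 FPKM after IFNβ (limma, log2 fold change 7.09, adjusted p = 1.2e-09).

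After IFNβ, 6 of the 23 tested collagens were higher (26.1%) and 2 were lower (8.70%), while 15 were not called at an adjusted p under 0.05 in limma's moderated test with Benjamini-Hochberg adjustment over all genes tested. The same test called 15.2% of all tested genes higher and 17.5% lower, 32.7% in either direction. The risers were COL8A1, COL1A1, COL17A1, COL4A1, COL6A1 and COL6A3, from 5 different classes, and the fallers were COL5A1, a fibrillar chain, and COL12A1, a FACIT chain. In this fit only COL8A1 also changed by at least 1 on the log2(FPKM + 0.1) scale. That size was reached with a call in 3.49% of genes upward and 0.739% downward. Values of the untreated and IFNβ libraries did not overlap for 11 of the 23 tested collagens, against 46.6% of all tested genes. The median log2 fold change of the tested collagens was 0.065, and that of all tested genes was 0.00017. In bulk RNA such as this, fewer cells making a transcript and less transcript per cell cannot be told apart. Without untreated library 1, 2 or 3, or IFNβ library 2 or 3, the count of lower collagens was 1, and without IFNβ library 1 the median was 0.042.

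**Figure D1:**
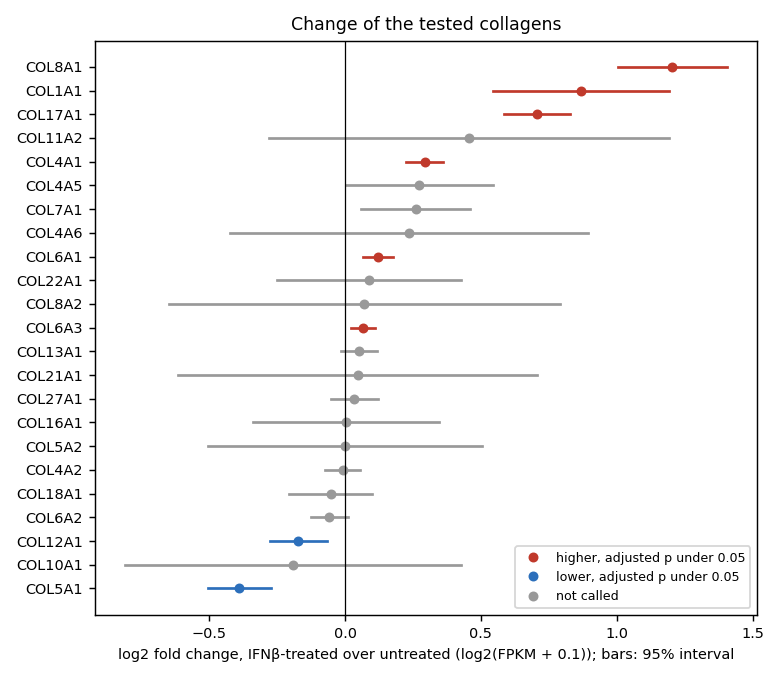
Log2 fold change, IFNβ-treated over untreated, of the 23 tested collagens, one row per gene, with bars for the 95% interval of the limma fit and colour for the call. The 6 higher collagens run from 0.065 for COL6A3 to 1.20 for COL8A1, and the widest bars belong to collagens with the fewest fragments.

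The DNA around the starts of 4 collagen genes is shown. COL4A1 and COL4A2 start back to back in RefSeq, and only COL4A1 was called. COL17A1 had the largest rise among the tested collagens with a RefSeq promoter sequence here, and COL5A1 had the largest fall. The sequences are RefSeq's on GRCh38.p14, written 5′ to 3′, and capitals mark the GC box GGGCGG, the CCAAT box and the core of the interferon-stimulated response element (ISRE), which is GAAA, any pair of bases and GAAA, on either strand. The first is the whole stretch between the RefSeq starts of COL4A1 and COL4A2 at chr13:110307158-110307283 on the plus strand. The others are the 250 bases before the start of COL17A1 at chr10:104085881-104086130 on the minus strand and before a start of COL5A1 at chr9:134641553-134641802 on the plus strand. GENCODE release 29 places a start of COL4A1, COL17A1 and COL5A1 inside these stretches. Its COL4A2 begins at chr13:110305812, outside the first stretch and inside COL4A1, so the 2 genes overlap there. What lies before a start, or between these 2 genes, thus depends on the annotation.
COL4A1-COL4A2: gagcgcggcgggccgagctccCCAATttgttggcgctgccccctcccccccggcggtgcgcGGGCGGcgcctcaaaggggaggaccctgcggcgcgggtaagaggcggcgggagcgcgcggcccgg
COL17A1: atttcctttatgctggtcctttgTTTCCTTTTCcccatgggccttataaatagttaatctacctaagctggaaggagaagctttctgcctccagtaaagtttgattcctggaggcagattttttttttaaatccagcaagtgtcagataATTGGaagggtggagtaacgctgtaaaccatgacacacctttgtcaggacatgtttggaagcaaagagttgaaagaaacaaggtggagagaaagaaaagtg
COL5A1: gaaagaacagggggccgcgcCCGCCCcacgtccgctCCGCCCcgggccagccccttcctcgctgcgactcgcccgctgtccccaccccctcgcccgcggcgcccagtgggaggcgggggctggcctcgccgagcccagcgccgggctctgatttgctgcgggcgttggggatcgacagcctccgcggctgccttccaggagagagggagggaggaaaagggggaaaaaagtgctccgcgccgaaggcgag

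The 126 bases between the RefSeq starts of COL4A1 and COL4A2 had a GC content of 80.2% with 1 GC box and 1 CCAAT box. The COL5A1 stretch had 74% with 2 GC boxes, and the COL17A1 stretch had 40.4% with 1 CCAAT box and 1 ISRE core. RefSeq promoter windows, from 250 bases before to 50 after a start, were found for 32 of the 44 collagens, 44 windows in all. They were not found for COL1A1, COL1A2, COL2A1, COL3A1, COL5A2, COL6A1, COL6A5, COL8A1, COL9A3, COL14A1, COL20A1 and COL22A1. Among these, COL8A1 and COL1A1 had the largest log2 fold changes of the tested collagens, and COL6A1 was also called higher. Searched on both strands, the ISRE core was in 1 collagen window (2.27%), that of COL17A1, and in 3.57% of all 35116 windows. The related interferon motif TTCNNNGAA was in 2 collagen windows (4.55%), those of COL11A2 and COL7A1, against 7.66% of all windows. GGGCGG was in 54.5% of collagen windows and 45.0% of all, CCAAT in 31.8% and 34.6%, and TATAAA in 18.2% and 11.5%. A match describes letters only and is not a bound site.

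Collagen RNA in untreated HT1080 cells was concentrated in a few genes. The summed level of all 44 collagens was 315 ± 6.13 FPKM (SD, n = 3), of which the highest 3 genes held 56.0% and the highest 6 held 89.2%. Untreated libraries 1, 2 and 3 summed to 321, 313 and 309 FPKM and the IFNβ libraries to 321, 324 and 323 FPKM, so the groups overlapped and the total after IFNβ was 322 ± 1.37 FPKM. With median ratio scaling the totals did not overlap, at 310 ± 6.41 untreated and 327 ± 1.76 after IFNβ, 5.43% higher. With quantile normalization and with equal FPKM totals they overlapped. Only 7 collagens had an untreated mean of at least 10 FPKM, and 21 lay under the filter. By class, type VI held 42.5% of the untreated sum, type IV 31.7%, fibrillar collagens 18.2%, transmembrane collagens 4.10% and FACIT collagens 2.19%.

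**Figure D2:**
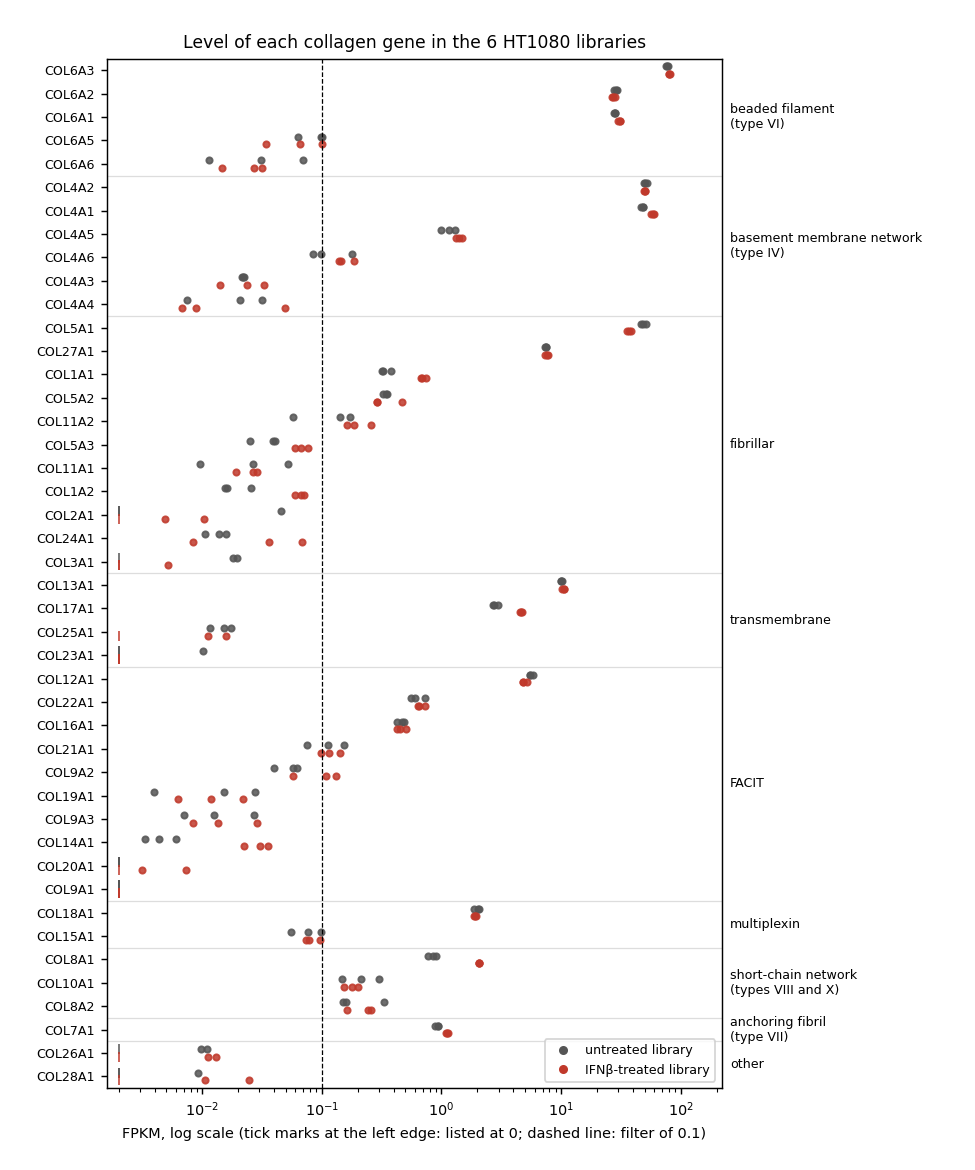
FPKM of each of the 44 collagens on a log axis, grouped by class, with a point for each untreated (grey) and IFNβ-treated (red) library, ticks at the left edge for values listed at 0, and a dashed line at the filter of 0.1. COL6A3 is the highest, at 76.8 FPKM in untreated cells. The 6 highest genes are separated from COL13A1, at 10.1 FPKM, by a gap that depends on the gene length used.

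FPKM divide by the length of all exons of a gene, and those lengths can far exceed a single transcript. The length recovered for COL4A2 was 19271 bp, against 6494 bp for the transcript with the longest coding sequence, and for COL6A3 it was 21516 bp against 10749 bp. Per kilobase of that transcript, a choice made after the values were seen, the untreated ratio of COL4A1 to COL4A2 was 0.706 in place of 0.946, that of COL6A1 to COL6A2 was 0.840 in place of 0.991, and that of COL6A3 to COL6A1 was 4.16 in place of 2.72. The ratio of a gene's FPKM between groups does not depend on its length. Log2 fold changes on the scale used here do, mostly for scarce genes, because a fixed amount is added to FPKM before the logarithm. Whether a gene passed the filter also depends on its length.

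Type VI, the beaded filament collagen, was the most abundant class by summed FPKM, but not per kilobase of the transcript with the longest coding sequence. Of its 3 tested chains 2 were higher and 1 was not called. The class summed to 134 ± 2.04 FPKM untreated and 139 ± 1.15 FPKM after IFNβ, higher by 3.64% (up to 6.64% under other scalings of the libraries), with no overlap between groups. COL6A3, the long chain that completes the heterotrimer with COL6A1 and COL6A2, lies at chr2:237324003-237414375. It had 78.1, 76.4 and 75.9 FPKM in the untreated libraries and 79.8, 79.9 and 81.2 FPKM after IFNβ. All 3 treated libraries lay above all untreated ones, but by a small margin (log2 fold change 0.065 ± 0.018 SE, adjusted p = 0.037). That call was not kept without untreated library 2 (adjusted p = 0.097) or 3 (0.10), or without IFNβ library 1 (0.074), 2 (0.084) or 3 (0.11), and was kept without untreated library 1. COL6A1 and COL6A2 lie on chromosome 21, at 45981737-46005050 and 46098097-46132849, on the same strand. COL6A1 had 28.5, 28.5 and 27.8 FPKM untreated and 30.1, 31.3 and 30.9 FPKM after IFNβ, higher in every treated library (log2 fold change 0.12 ± 0.023, adjusted p = 0.0077). COL6A2 had 28.7, 29.2 and 27.7 FPKM untreated and 27.3, 28.0 and 26.8 FPKM after IFNβ, and the groups overlapped (log2 fold change -0.058, 95% interval -0.13 to 0.010, adjusted p = 0.18). Untreated FPKM of COL6A1 and COL6A2 overlapped, which depends on the gene lengths used. COL6A5 and COL6A6, the alternative long chains, lay under the filter, with untreated means of 0.0874 and 0.0373 FPKM.

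Type IV, the basement membrane collagen, summed to 99.6 ± 2.56 FPKM untreated and 110 ± 2.30 FPKM after IFNβ, 10.8% higher (10.6% to 14% under other scalings), with 1 of 4 tested chains higher and 3 not called. COL4A1 (chr13:110148963-110307233, minus strand) and COL4A2 (chr13:110305812-110513209, plus strand) encode the chains of the common type IV trimer and are transcribed away from each other. COL4A1 had 48.6, 48.2 and 46.6 FPKM in untreated libraries and 56.9, 58.7 and 60.1 FPKM after IFNβ. Every treated library lay well above every untreated one (log2 fold change 0.29 ± 0.028 SE, adjusted p = 4.4e-04). COL4A2 had 52.0, 50.5 and 49.0 FPKM untreated and 49.3, 50.6 and 50.8 FPKM after IFNβ. The COL4A2 groups overlapped and the interval of its change was narrow, from -0.073 to 0.056 (log2 fold change -0.0086, adjusted p = 0.85), with a sign that turned under some scalings. Untreated values of COL5A1 overlapped those of COL4A2 and those of COL4A1, its neighbours in the order of levels. Every untreated COL4A2 value lay above every untreated COL4A1 value, by an amount that depends on the gene lengths used.

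The ratio of COL4A1 to COL4A2 within a library cannot be moved by a constant factor per library. It was 0.935, 0.954 and 0.950 in untreated cells and 1.16, 1.16 and 1.18 after IFNβ. The groups were well apart, and an exact two-sided permutation test of 3 against 3 libraries gave p = 0.10, the smallest value it can give (0.14 after Benjamini-Hochberg adjustment over the 7 ratios computed). The ratio of COL6A1 to COL6A2 was 0.991 ± 0.0157 untreated and 1.12 ± 0.0253 after IFNβ, and that of COL6A3 to COL6A1 was 2.72 ± 0.0287 and 2.61 ± 0.0534, with no overlap and the same exact permutation p. The other back-to-back type IV chains were far lower. COL4A5, a chain of the X chromosome whose start lies 379 bases from that of COL4A6, had 1.16, 1.30 and 0.993 FPKM untreated and 1.48, 1.33 and 1.40 FPKM after IFNβ. Its treated libraries were all higher, but it was not called (log2 fold change 0.27, 95% interval 0.0026 to 0.55, adjusted p = 0.12). COL4A6 had means of 0.120 and 0.156 FPKM and was not called, and COL4A3 and COL4A4, which start 135 bases apart on chromosome 2, had untreated means of 0.0219 and 0.0198 FPKM. The ratios of COL4A5 to COL4A6 and of COL4A3 to COL4A4 overlapped between groups.

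**Figure D3:**
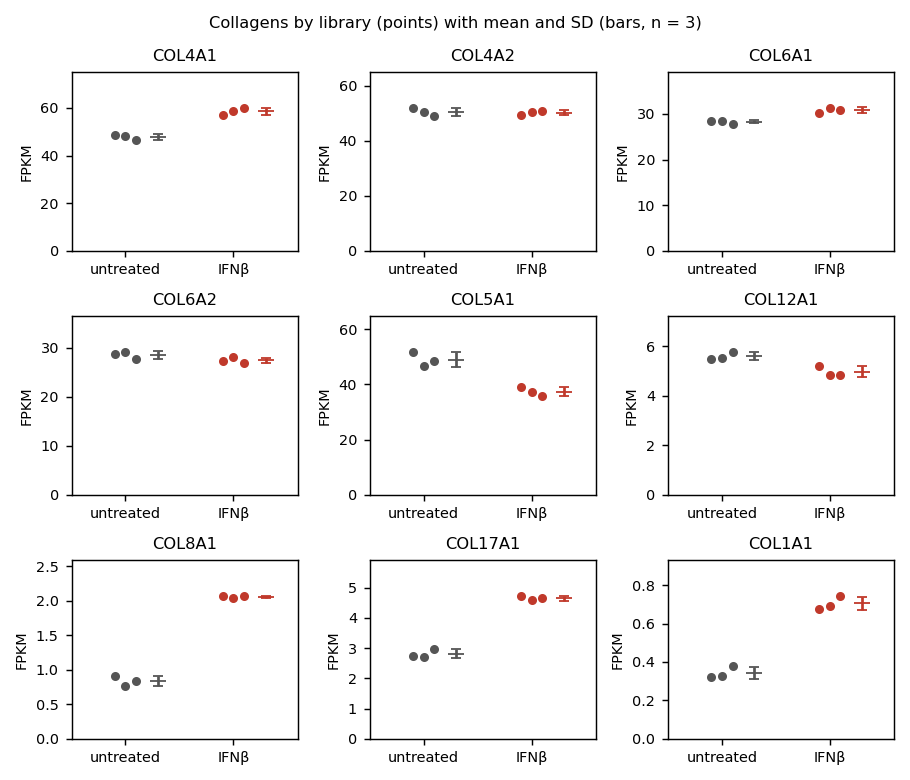
FPKM of 9 collagens in each untreated and IFNβ-treated library (points) beside the mean with SD (bars, n = 3), every axis starting at 0. COL4A1 separates between groups while COL4A2 does not, and COL5A1 and COL12A1 are the only panels where all treated points lie below all untreated ones.

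Fibrillar collagens had the opposite sum, with 57.3 ± 2.73 FPKM untreated and 46.4 ± 1.84 FPKM after IFNβ, a change of -19% that ran from -16.7% to -19.3% under other scalings of the libraries. Of 11 genes 5 were tested, of which 1 was higher, 1 lower and 3 not called, and the sum followed COL5A1. COL5A1 (chr9:134641774-134844843), the chain of type V collagen that controls fibril diameter, had 51.8, 46.6 and 48.3 FPKM untreated and 38.9, 37.3 and 35.8 FPKM after IFNβ. All treated libraries were lower (log2 fold change -0.39 ± 0.048 SE, adjusted p = 0.0013). COL5A2, its usual partner chain, was much lower in level, with 0.353, 0.345 and 0.324 FPKM untreated and 0.466, 0.290 and 0.288 FPKM after IFNβ. IFNβ library 1 lay above the rest and the other two below, so the COL5A2 groups overlapped and the interval was wide (-0.50 to 0.51, adjusted p = 0.997). COL27A1, a fibrillar chain of cartilage, had 7.46, 7.33 and 7.49 FPKM untreated and 7.84, 7.70 and 7.29 FPKM after IFNβ, with overlap (log2 fold change 0.034, adjusted p = 0.53).

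COL1A1 (chr17:50183289-50201632), the major chain of type I collagen in skin and bone, was scarce, at percentile 25.8 of the untreated levels of tested genes, while COL6A3 stood at percentile 97.8. It had 0.321, 0.326 and 0.378 FPKM untreated, from 66, 87 and 112 fragments, and 0.678, 0.693 and 0.745 FPKM after IFNβ, from 188, 156 and 194 fragments. The treated libraries were all higher, by 2.07-fold in the means (log2 fold change 0.87 ± 0.13 SE, adjusted p = 0.0035). Its partner COL1A2 lay under the filter, with 4, 5 and 9 fragments untreated and 20, 19 and 21 after IFNβ. These counts did not overlap, and with no filter its log2 fold change was 0.48 with an adjusted p of 0.053. The ratio of COL1A1 to COL1A2 was 18.5 ± 3.17 untreated and 10.7 ± 0.774 after IFNβ, and rests on those few COL1A2 fragments. COL3A1, the type III chain next to COL5A2 on chromosome 2, had at most 4 fragments in any library. COL11A2 had means of 0.124 and 0.202 FPKM and was not called (interval -0.28 to 1.19), and COL2A1, COL5A3, COL11A1 and COL24A1 lay under the filter. Of these, COL5A3 did not overlap between groups, with 6, 5 and 9 fragments untreated and 16, 10 and 13 after IFNβ.

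**Figure D4:**
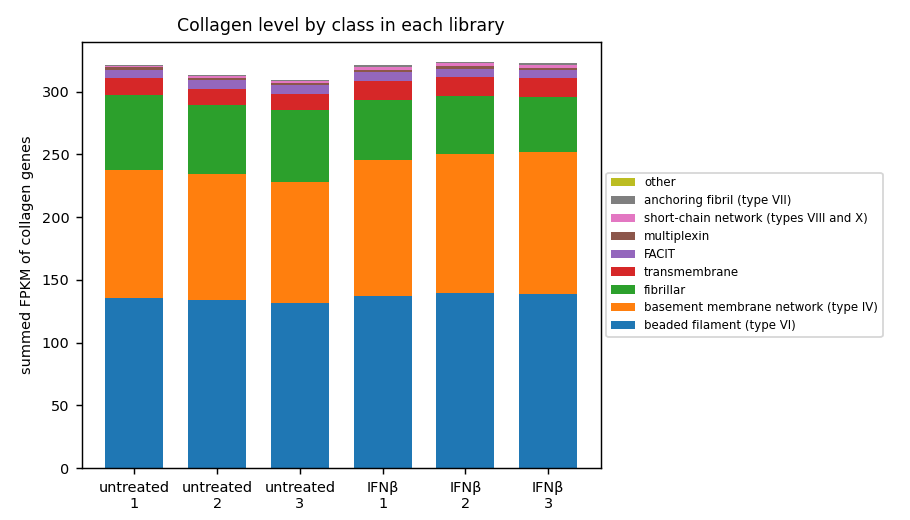
Summed FPKM of the collagens of each class, stacked, in each of the 6 libraries. The totals stay between 309 and 324 FPKM while the fibrillar part goes from 57.3 to 46.4 FPKM and the type IV part from 99.6 to 110 FPKM in the group means.

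Among the transmembrane collagens, COL17A1, the hemidesmosomal collagen of basal epithelial cells, rose and COL13A1, found at cell-matrix junctions, was not called. COL17A1 (chr10:104031286-104085957, minus strand) had 2.75, 2.71 and 2.98 FPKM untreated and 4.73, 4.58 and 4.65 FPKM after IFNβ. Treated and untreated libraries were far apart (log2 fold change 0.71 ± 0.050 SE, adjusted p = 1.3e-04). Its start region held the only ISRE core among the collagen windows, which do not cover the risers COL8A1, COL1A1 and COL6A1. The part of that match in the rise was not tested. COL13A1 had 10.0, 10.1 and 10.1 FPKM untreated and 10.6, 10.6 and 10.1 FPKM after IFNβ, a small difference (log2 fold change 0.051, 95% interval -0.015 to 0.12, adjusted p = 0.22). COL23A1 and COL25A1 lay under the filter. The class summed to 12.9 ± 0.154 FPKM untreated and 15.1 ± 0.269 FPKM after IFNβ, 15% to 20.4% higher over the scalings.

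The short-chain network collagens held the largest log2 fold change among the 23 tested collagens. COL8A1 (chr3:99638475-99799226), a chain of type VIII collagen in vessel walls and beneath the corneal endothelium, had 0.907, 0.770 and 0.843 FPKM untreated, from 195, 215 and 261 fragments. After IFNβ it had 2.07, 2.05 and 2.06 FPKM, from 601, 481 and 561 fragments. The treated libraries were close to each other and all higher, by 2.45-fold in the means (log2 fold change 1.20 ± 0.083 SE, adjusted p = 1.2e-04). COL8A2, the other type VIII chain, had means of 0.213 and 0.222 FPKM with overlap (interval -0.65 to 0.79), and COL10A1, the collagen of hypertrophic cartilage, had 0.221 and 0.176 FPKM with overlap (-0.81 to 0.43). COL7A1, the anchoring fibril collagen beneath epithelia, had 0.885, 0.932 and 0.933 FPKM untreated and 1.10, 1.11 and 1.14 FPKM after IFNβ. It was higher in every treated library but missed the threshold (log2 fold change 0.26 ± 0.083 SE, adjusted p = 0.055).

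Of the 10 FACIT collagens 4 were tested, 1 was lower and none was higher, and the class summed to 6.89 ± 0.152 FPKM untreated and 6.37 ± 0.198 FPKM after IFNβ, groups that overlapped with median ratio scaling. COL12A1 (chr6:75084326-75206051), a large fibril-associated chain of dense connective tissue, had 5.50, 5.53 and 5.77 FPKM untreated and 5.21, 4.85 and 4.83 FPKM after IFNβ. All treated libraries were lower (log2 fold change -0.17 ± 0.044 SE, adjusted p = 0.026). The call was not kept without untreated library 1 (adjusted p = 0.051), 2 (0.059) or 3 (0.083), or without IFNβ library 2 (0.084) or 3 (0.084), and was kept without IFNβ library 1. COL16A1, COL21A1 and COL22A1 overlapped between groups, with untreated means of 0.459, 0.113 and 0.627 FPKM. COL9A1, COL9A2, COL9A3, COL14A1, COL19A1 and COL20A1 lay under the filter. COL14A1 had 1, 1 and 2 fragments untreated and 7, 9 and 9 after IFNβ, with no overlap, and with no filter its adjusted p was 0.085.

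Of the multiplexins, COL18A1, the source of endostatin, had 2.04, 2.04 and 1.86 FPKM untreated and 1.93, 1.91 and 1.87 FPKM after IFNβ, with overlap (log2 fold change -0.053, 95% interval -0.21 to 0.10, adjusted p = 0.58). Its exons share 1401 bp, 16.4% of their length, with SLC19A1 on the opposite strand, and whether the counting used strand is not given in the sources used here, so reads of the pair may be mixed. COL15A1 lay under the filter, as did COL26A1 and COL28A1. Across the 21 collagens under the filter no library exceeded 0.131 FPKM or 31 fragments, and 3 of them, COL1A2, COL5A3 and COL14A1, did not overlap between groups. Differences in the others were not detectable at this depth.

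The genes that hydroxylate, fold, export, trim, crosslink, bind or regulate collagens were read from 7 lists. Of their 62 genes 59 were tested, and none reached a log2 fold change of 1 in size. Called higher were 24 (40.7%, against 15.2% of all tested genes) and lower 10 (16.9%, against 17.5%), while 25 were not called. The median log2 fold change over the 59 was 0.11, and over all tested genes it was 0.00017. In the prolyl hydroxylation and folding list, 6 of 15 were higher and 3 lower, with a median of 0.016. SERPINH1, the collagen chaperone HSP47, had 31.4 ± 0.489 FPKM untreated and 56.6 ± 1.06 FPKM after IFNβ (log2 fold change 0.85, limma adjusted p = 1.4e-06). P4HA1, a catalytic subunit of prolyl 4-hydroxylase, rose by 0.49 from 14.8 FPKM (adjusted p = 7.3e-04), while P4HA2, the alternative subunit, had a change of 0.17 with an adjusted p of 0.11. SPARC, a collagen-binding matricellular protein, rose by 0.32 (adjusted p = 7.7e-04) and P3H1, a prolyl 3-hydroxylase, by 0.19 (adjusted p = 0.0020). CRTAP, the partner of P3H1, fell by 0.19 on the log2 scale (adjusted p = 8.0e-04), FKBP14, a prolyl isomerase, fell by 0.32 (adjusted p = 0.0074), and TMEM38B, an ER cation channel, fell by 0.31 (adjusted p = 3.1e-04).

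All 3 lysyl hydroxylases rose, PLOD3 by 0.32 on the log2 scale, PLOD2 by 0.22 and PLOD1 by 0.14 (limma adjusted p = 2.6e-04, 0.0030 and 0.011), and the galactosyltransferases COLGALT1 and COLGALT2 were not called. Of the 9 secretion genes 4 were higher and 1 lower. The related ER stress transcription factors CREB3L1 and CREB3L2 moved in opposite directions, CREB3L1 from 1.54 to 2.80 FPKM (log2 fold change 0.82, adjusted p = 3.3e-04) and CREB3L2 from 17.3 to 11.8 FPKM (-0.55, adjusted p = 2.2e-04). SEC24D, a COPII coat subunit, rose by 0.38 (adjusted p = 0.0012) and MIA3, the procollagen export receptor TANGO1, by 0.16 (adjusted p = 0.013). Of 7 tested propeptide removal genes only BMP1, the C-proteinase, was higher (0.24, adjusted p = 0.026), and that call was not kept without untreated library 1 or 3 (0.077 and 0.082) or IFNβ library 2 or 3 (0.076 and 0.082).

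Of the 4 tested lysyl oxidases, which crosslink collagen, 3 were higher. LOXL3 had 26.2 ± 0.267 FPKM untreated and 41.7 ± 1.64 FPKM after IFNβ (log2 fold change 0.67, limma adjusted p = 2.3e-05), and LOXL1 rose by 0.32 (adjusted p = 0.0014). LOX rose by 0.12 (adjusted p = 0.016), a call not kept without untreated library 2 or 3 (0.052 and 0.053) or IFNβ library 1 (0.057). Of 9 tested receptors 4 were higher and 1 lower. ITGA1, an integrin subunit that binds type IV collagen, rose by 0.57 (adjusted p = 8.7e-04), the receptor tyrosine kinase DDR1 by 0.47 (adjusted p = 0.0017), and MRC2, an endocytic collagen receptor, by 0.25 (adjusted p = 0.0028). ITGA10 rose by 0.36 (adjusted p = 0.022), a call not kept without untreated library 1 or 3 (0.073 and 0.070) or IFNβ library 2 or 3 (0.085 and 0.083). ITGB1, the shared β subunit of the collagen-binding integrins, fell by 0.21 (adjusted p = 1.7e-04). DDR2, the receptor for fibrillar collagens, had a change of -0.079 with an adjusted p of 0.066, and was called lower without IFNβ library 1 (0.027).

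In the TGF-β axis, a main regulator of collagen genes, 3 of 10 genes were higher and 5 lower, with a median of -0.12. Among ligands, TGFB2 rose by 0.53 (limma adjusted p = 0.0015) and TGFB3 by 0.47 (adjusted p = 0.022), while TGFB1, at 63.7 FPKM untreated, had a change of 0.10 with an adjusted p of 0.10. Receptor TGFBR1 fell from 10.2 to 6.63 FPKM (log2 fold change -0.62, adjusted p = 2.1e-04). The inhibitor SMAD7 fell from 4.40 to 2.79 FPKM (-0.64, adjusted p = 0.0016), and the transducers SMAD2 and SMAD3 fell by 0.27 and 0.25 (adjusted p = 0.010 and 0.0022). The target CCN2 rose by 0.22 (adjusted p = 0.042). The TGFB3 call was kept only without untreated library 1, with adjusted p from 0.052 to 0.076 without any other library, and so was that of CCN2, with adjusted p from 0.071 to 0.14.

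**Figure D5:**
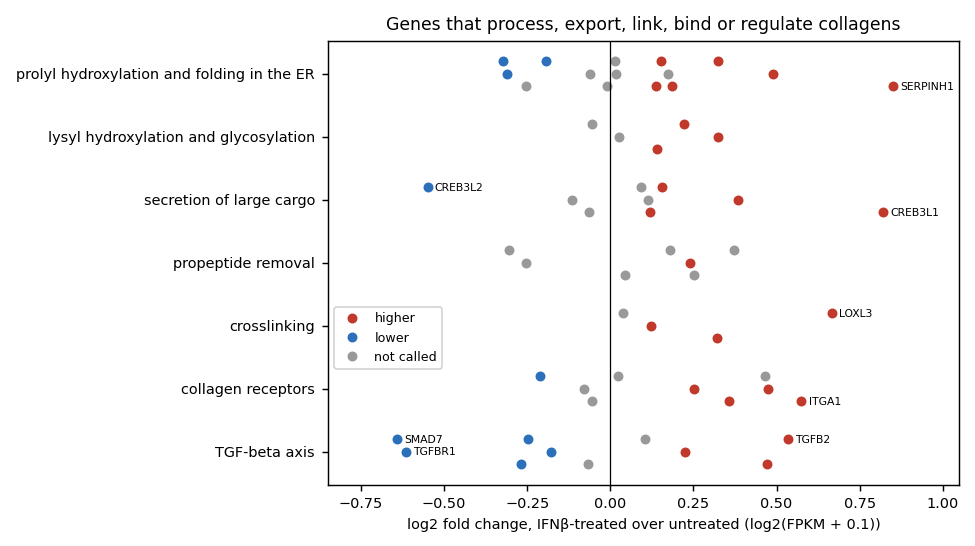
Log2 fold change, IFNβ-treated over untreated, of the 59 tested genes of the 7 lists, one point per gene, coloured by call at an adjusted p under 0.05, with the largest called changes named. Red points outnumber blue in every list but the TGF-β axis, which has 3 higher and 5 lower. Of all tested genes, 15.2% were called higher and 17.5% lower.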

How the data were processed

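RNA of HT1080 cells was sequenced in 3 untreated and 3 IFNβ-treated paired-end libraries, and the authors deposited FPKM with 1 value per Ensembl gene and library. The submitters' processing notes name fastp, HISAT2, StringTie and GRCh38, without versions, and the methods name DESeq2 on counts, which were not used here. Names came from a symbol table (62639 IDs), and locations from GENCODE release 29, in which 4436 of the IDs are absent. Fragments were recovered for 35302 of 35303 genes above 0, for 16322 as whole numbers with the GENCODE exon length (relative tolerance 1e-06) and for the rest as the lowest integers that keep the ratios between libraries (1e-07) or, failing that, that a whole gene length gives (within 1e-06). Genes with a mean of at least 0.1 FPKM were compared with limma 3.58.1 (R 4.3.3), lmFit and eBayes with trend on log2(FPKM + 0.1), no covariate, and Benjamini-Hochberg adjustment. The procedure was run on simulated counts with the same spread setting for every gene (dispersion 0.005). The scarcest genes were not among those changed in the simulation, so it does not cover the scarcest collagens. Collagens with a mean of at least 1 FPKM and called ones are given by library, and for the lists up to 4 called rises and 4 falls are named, plus P4HA1, P4HA2, SERPINH1, PLOD2, LOX, DDR1, DDR2, TGFB1 and CCN2. Members, classes and lists were chosen with earlier results of these data known, and 1 gene of the TGF-β list is not reported here. The ratios between chains, their permutation test, and COL5A2, COL8A2, COL10A1, COL11A2 and the genes under the filter named with values were added after the values were seen. Other steps ran in Python 3.11.15 with numpy 2.4.6, scipy 1.17.1 and pandas 2.3.3. Alternatives were other pseudocounts, filters, scalings, thresholds, no trend, a replicate block, limma-voom on fragments and leaving out each library.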

Additional observations from a re-analysis of the deposited data

How the results depend on the processing

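Across 16 other fits, COL8A1, COL17A1, COL4A1 and COL5A1 kept direction and call, as did COL1A1 in the 15 that tested it. Collagens called higher numbered 5 to 9 in these fits, 5 at an adjusted p under 0.01, and 1 with a log2 fold change of at least 1. Those called lower numbered 1 with median ratio scaling, without trend, with a replicate block and at an adjusted p under 0.01, and 0 with the fold threshold. Leaving out a library gave 5 to 6 higher, 1 to 2 lower and a median of 0.042 to 0.090, and COL4A2 ranged from -0.030 to 0.012. The median was 0.038 with a pseudocount of 1, 0.097 with 0.01, 0.098 with median ratio scaling and 0.022 with quantile normalization, while that of all genes was 0.037 and -0.056 with these scalings. The log2 fold change of COL8A1 was 0.74 with a pseudocount of 1. That of COL1A1, 0.87 in the main fit, was 0.35 with a pseudocount of 1. It was 1.03 with a pseudocount of 0.01 and 1.03 with limma-voom on fragments. The 8 called collagens lost their call in 19 of 127 values, from COL6A3 (10), COL12A1 (8) and COL6A1 (1), and none changed direction. COL4A2, not called, changed sign with median ratio scaling (0.032), equal totals (0.0041), without untreated library 1 (0.012) and without IFNβ library 1 (0.0049). COL7A1 gained a call in 5 fits, and COL4A5 and COL13A1 in 1 each. Replicate numbers gave no consistent pairing of the libraries. Same-numbered libraries had correlations of 0.053, -0.018 and 0.12, the last being the highest of all pairs. Untreated library 1 correlated best with IFNβ library 2 (0.099) and untreated library 2 with IFNβ library 3 (0.051). With the replicate block, 5 collagens were higher and 1 lower. Collagens under 0.1 FPKM rest on at most 31 fragments, which limits their comparison, and the cause of these changes was not tested.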
